A study of Mus musculus with 12 samples.

Results

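The Fc receptors for immunoglobulin G described here are 6 genes, Fcgr1, Fcgr2b, Fcgr3, Fcgr4, Fcer1g and Fcgrt, out of 14541 genes listed in the deposited expression table. They were taken by symbol, and all 6 passed the filter on low values that left 11242 genes for testing. Microglia, which are the macrophages of brain tissue, were taken with CD11b magnetic beads from forebrains of wild-type mouse pups at postnatal day 7 to 9, plated at 40000 to 80000 cells per well and treated for 6 h. The groups were Hevin (500 nM recombinant protein; Hevin is secreted by astrocytes), LPS (50 ng/mL lipopolysaccharide, a bacterial product sensed by Toll-like receptor 4) and Media (an equal volume of growth medium). Each group held 4 poly(A) RNA libraries, numbered 1 to 4. CD11b also marks other myeloid cells, so the beads are not specific to microglia.

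Fc gamma receptors bind the constant part of IgG and so couple antibody-coated particles to phagocytes. FcγRI, FcγRIII and FcγRIV activate the cell through the common gamma chain encoded by Fcer1g, whose immunoreceptor tyrosine-based activation motif (ITAM) recruits the kinase Syk, whereas FcγRIIB carries an inhibitory motif that recruits phosphatases such as SHIP-1. FcRn, encoded by Fcgrt and paired with beta-2 microglobulin, binds IgG inside acidic endosomes and returns it to the cell surface, which spares it from degradation. In the brain, microglia are the main cells that carry activating Fc gamma receptors.

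Levels are in FPKM, reads scaled to transcript length and library depth, and can therefore be compared between genes. Fold changes are log2 of FPKM + 1, with their SE; this understates changes of weakly expressed genes such as Fcgr4. Adjusted p-values come from limma with Benjamini-Hochberg adjustment over all 11242 genes. A gene was called where the adjusted p was under 0.05. Because libraries of the same number varied together, each call was also made with the replicate number as a block, and that value is given where it changes the call. Whether libraries of 1 group stem from separate animals or cultures is not stated in the labels, so the p-values reflect the spread between libraries, which may be technical.

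Depth, counted as whole reads recovered from the FPKM values, was 18343996 to 27361665 reads per library. The 12 microglial markers examined, such as Cx3cr1 and P2ry12, were all present, with summed levels of 1052 to 1579 FPKM in Hevin, 492 to 770 FPKM in LPS and 579 to 844 FPKM in Media. Border macrophage markers summed to 576 to 786 FPKM in Hevin, 674 to 836 FPKM in LPS and 791 to 925 FPKM in Media. The 3 libraries numbered 2 stood apart in every group: 7 neutrophil markers (S100a8, S100a9, Mpo, Camp, Ngp, Ltf and Retnlg) summed to 1953 to 2105 FPKM there, against 40.2 to 104 FPKM in the other 9 libraries. Of other cells that carry Fc receptors, the B-cell markers Cd79a and Cd79b summed to at most 4.17 FPKM in any library and the natural killer cell markers Klrk1 and Eomes to at most 0.39 FPKM. The 5 dendritic cell markers summed to 3.18 to 4.75 FPKM in Hevin, 8.55 to 13.7 FPKM in LPS and 4.64 to 6.1999 FPKM in Media, with 2 of them, Xcr1 and Zbtb46, called higher in LPS than in Media and lower in Hevin than in LPS. Kit, the 1 mast cell marker of 6 that was listed, lay at 1.33 to 8.38 FPKM in Hevin, 1.87 to 15.1 FPKM in LPS and 1.29 to 11.3 FPKM in Media. The 6 astrocyte markers summed to 20.5 to 42.9 FPKM in Hevin, 112 to 233 FPKM in LPS and 49.4 to 84.3 FPKM in Media. Most of that sum was Gja1, the gap junction protein connexin 43, the only one of them called, which was higher in LPS and lower in Hevin than in Media. The 6 endothelial markers summed to 27.8 to 142 FPKM in Hevin, 24.9 to 155 FPKM in LPS and 25.03 to 137 FPKM in Media. Their sum was lowest in number 1 and highest in number 3 of each group, and 0 of them were called. The part of all these cells in the results below was not tested. In bulk RNA, fewer cells of a type and less RNA per cell cannot be told apart.

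Fcer1g was the most abundant of the 6 genes in all 3 groups, followed by Fcgr3, and their ranges did not overlap in any group. In Hevin and in Media, Fcgrt came next, then Fcgr1 and Fcgr2b, whose ranges overlapped, and Fcgr4 was lowest. In LPS the order was Fcer1g, Fcgr3, Fcgr2b, Fcgr1, Fcgrt and Fcgr4, and of the neighbours in that order Fcgr3 overlapped Fcgr2b, and Fcgr1 overlapped Fcgrt.

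**Figure D1:**
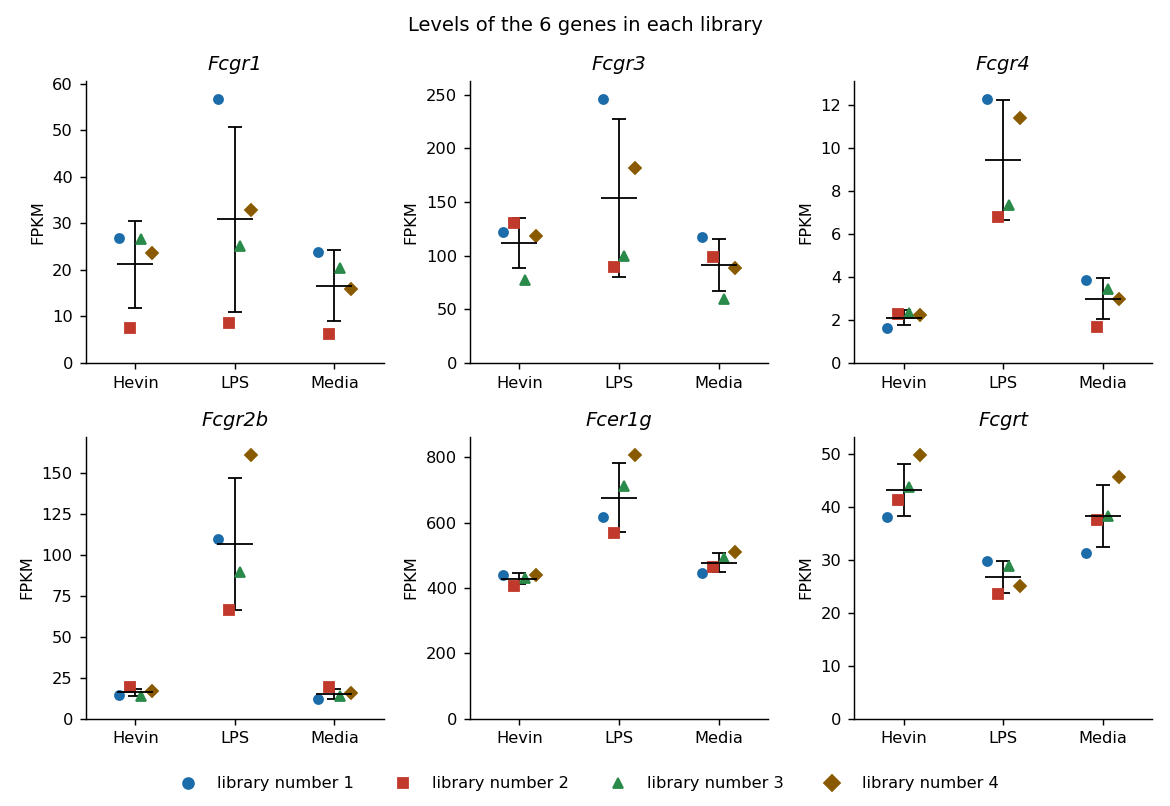
FPKM of the 6 genes (vertical axes, linear, starting at 0) in the Hevin, LPS and Media libraries; each symbol is 1 library, coloured by its number, and the bar and whiskers are the mean and SD (n = 4). All 4 LPS libraries sit above all Hevin and Media libraries for Fcgr2b, Fcgr4 and Fcer1g and below them for Fcgrt, while the library numbered 2 is lowest for Fcgr1 in every group.

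Of the 6 genes, Fcgr2b, which encodes the inhibitory receptor FcγRIIB, rose most in LPS. It lies on chromosome 1 (170958617 to 170976547, minus strand, GRCm38, GENCODE M21). It had 14.5, 19.00, 14.1 and 16.7 FPKM in Hevin libraries 1 to 4, 109.7, 66.1, 89.5 and 161 FPKM in LPS libraries 1 to 4, and 12.1, 19.1, 14.01 and 15.6 FPKM in Media libraries 1 to 4. Every LPS library was far above every other library, and Hevin and Media overlapped almost wholly. The log2 fold change was 2.67 ± 0.23 for LPS against Media (adjusted p = 5.80e-06) and -2.59 ± 0.23 for Hevin against LPS (adjusted p = 3.90e-06). Within the numbers 1 to 4, LPS over Media was 9.05, 3.47, 6.39 and 10.3-fold, so the size of the rise varied between numbers although its direction did not. Hevin against Media was 0.08 ± 0.23 (adjusted p = 0.902; 95% interval -0.41 to 0.58).

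Part of the Fcgr2b reads could belong to its near copy. Of all 50-base stretches of annotated Fcgr2b transcripts 4.38% also occur in transcripts of another gene, and of Fcgr3 9.58%, in Fcgr2b; the longest run shared by both genes is 129 bases. For stretches of 100 bases, the length of a read, these shares were 1.403% for Fcgr2b and 2.54% for Fcgr3. The assignment of reads in these stretches is uncertain. None of the 50-base stretches of Fcgr1, Fcgr4, Fcer1g or Fcgrt occurs in another gene. An exon of the unnamed gene model Gm38204 overlaps Fcgr2b on the other strand, and the use of strand in counting is not given in the sources used here.

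Fcgr1 encodes the high-affinity activating receptor FcγRI and lies apart from the others, on chromosome 3 (96282909 to 96293969, minus strand). It had 26.9, 7.50, 26.7 and 23.6 FPKM in Hevin libraries 1 to 4, 56.6, 8.64, 25.2 and 32.95 FPKM in LPS libraries 1 to 4, and 23.9, 6.32, 20.4 and 15.8 FPKM in Media libraries 1 to 4. The library numbered 2 was lowest in each group, by a wide margin, and the groups overlapped. Without the block no comparison was called: 0.73 ± 0.56 for LPS against Media (adjusted p = 0.377), 0.32 ± 0.56 for Hevin against Media (adjusted p = 0.8291) and -0.40 ± 0.56 for Hevin against LPS (adjusted p = 0.602). With the block the rise in LPS was called (adjusted p = 0.00362; 95% interval 0.38 to 1.08), as was the lower level in Hevin than in LPS (adjusted p = 0.0480). Hevin over LPS was 0.475, 0.868, 1.06 and 0.715-fold within numbers 1 to 4, so number 3 ran the other way. LPS over Media was 2.37, 1.37, 1.23 and 2.08-fold within numbers 1 to 4. Without the libraries numbered 2, LPS against Media was 0.84 (adjusted p = 0.0471, no block).

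Fcgr1 is a textbook target of interferon, through a gamma-activated site (GAS), and the RefSeq promoter table (GRCm38.p6) held an entry for each of the 6 genes. The 250 bases before the start of Fcgr1 (chr3:96293970-96294219, minus strand) are shown because they carry such a pattern, together with most of those of Fcgr4 (chr1:171018676-171018919, plus strand), which carry an ISRE-like pattern of the kind bound by interferon-regulated factors, and of Fcer1g (chr1:171234366-171234599, minus strand), which hold none of the patterns searched. The last 6 of the 250 bases for Fcgr4 and the last 16 for Fcer1g lie in annotated UTRs and are not printed, and distances are counted from the start of the table, not from the end of the printed run. Capitals mark the matches.
Fcgr1: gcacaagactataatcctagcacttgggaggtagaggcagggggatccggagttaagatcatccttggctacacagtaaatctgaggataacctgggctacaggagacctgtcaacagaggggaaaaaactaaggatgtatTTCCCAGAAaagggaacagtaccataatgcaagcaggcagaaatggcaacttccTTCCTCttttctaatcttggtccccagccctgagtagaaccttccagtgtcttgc
Fcgr4: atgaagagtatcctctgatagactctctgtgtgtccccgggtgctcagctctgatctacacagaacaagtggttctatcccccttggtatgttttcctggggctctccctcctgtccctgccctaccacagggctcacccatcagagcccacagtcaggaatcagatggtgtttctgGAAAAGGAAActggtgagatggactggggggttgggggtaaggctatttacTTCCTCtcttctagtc
Fcer1g: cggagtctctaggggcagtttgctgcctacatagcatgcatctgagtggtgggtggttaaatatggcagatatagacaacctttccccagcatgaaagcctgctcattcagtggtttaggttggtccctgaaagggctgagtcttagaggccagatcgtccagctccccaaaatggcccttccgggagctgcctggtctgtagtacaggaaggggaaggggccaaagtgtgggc
In Fcgr1 the capitals are 1 GAS, TTCCCAGAA, 109 bases before the start, and 1 PU.1 box, read as TTCCTC, 55 bases before it. In Fcgr4 they are 1 ISRE-like match (a pair of GAAA blocks separated by any pair of bases) 73 bases before the start and 1 PU.1 box 22 bases before it. The GAS was searched as TTCNNNGAA, which reads the same on both strands, and the PU.1 box as GAGGAA on both strands. Over the 250 bases before all 32851 starts of the table, 7.02% held a GAS, 23.3% a PU.1 box and 2.98% the ISRE-like pattern. Fcgr3 held a PU.1 box before both of its starts, at 6 and 15 bases, which is the same site counted from each start. Fcgr2b and Fcgrt held none of the patterns in this window. Of the 250 bases searched, 187 for Fcgr2b, 29 for Fcgrt and 27 for Fcgr3 lie in the gene's own annotated UTR. The window for Fcgr2b is thus mostly transcript. A match describes the letters only.

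Fcgr3 encodes the low-affinity activating receptor FcγRIII and lies on chromosome 1 (171051174 to 171064935, minus strand). It had 122, 130.1, 77.4 and 118 FPKM in Hevin libraries 1 to 4, 246, 89.4, 99.4 and 181 FPKM in LPS libraries 1 to 4, and 118, 99.2, 60.02 and 88.3 FPKM in Media libraries 1 to 4. LPS libraries 1 and 4 were above all others and LPS libraries 2 and 3 lay within the range of the other groups. LPS against Media was 0.66 ± 0.31 (adjusted p = 0.143), and it was called with the block (adjusted p = 0.0186; 95% interval 0.23 to 1.10). LPS over Media was 2.09, 0.901, 1.66 and 2.06-fold within numbers 1 to 4, so number 2 ran the other way. Hevin against Media was 0.30 ± 0.31 (adjusted p = 0.669) and Hevin against LPS -0.36 ± 0.31 (adjusted p = 0.388). Hevin against LPS was not called with the block either (adjusted p = 0.139), but was called at -0.66 (adjusted p = 0.00100) once those numbered 2 were left out and the block was kept.

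Fcgr4 encodes FcγRIV, an activating receptor of rodent phagocytes, on chromosome 1 (171018920 to 171029761, plus strand), and it was the lowest of the 6 genes. It had 1.61, 2.26, 2.35 and 2.21 FPKM in Hevin libraries 1 to 4, 12.3, 6.80, 7.33 and 11.4 FPKM in LPS libraries 1 to 4, and 3.87, 1.69, 3.44 and 2.97 FPKM in Media libraries 1 to 4. Behind these stood 56, 65, 93 and 78 recovered reads in Hevin, 314, 179, 224 and 235 in LPS and 128, 41, 117 and 105 in Media. All LPS libraries were above all others. LPS against Media was 1.38 ± 0.21 (adjusted p = 5.98e-04) and Hevin against LPS -1.72 ± 0.21 (adjusted p = 5.96e-05). Hevin over Media was 0.417, 1.34, 0.682 and 0.743-fold within numbers 1 to 4, lower in 3 of 4 numbers, and the difference was not called (-0.33 ± 0.21, adjusted p = 0.425; 95% interval -0.80 to 0.13). Mouse neutrophils also carry Fcgr3 and Fcgr4. Levels in the libraries numbered 2, which held the neutrophil markers, are set against the other numbers below. The part of neutrophils in them was not tested.

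Fcer1g, the shared signalling chain, lies on chromosome 1 (171229572 to 171234365, minus strand). It had 439.6, 406, 431 and 439 FPKM in Hevin libraries 1 to 4, 617, 569.6, 713 and 807 FPKM in LPS libraries 1 to 4, and 446, 463, 492 and 509 FPKM in Media libraries 1 to 4. All LPS libraries were above all Media libraries, and all Media libraries were above all Hevin libraries. LPS against Media was 0.49 ± 0.10 (adjusted p = 0.00486) and Hevin against LPS -0.64 ± 0.10 (adjusted p = 4.51e-04). The lower level in Hevin than in Media, in 4 of 4 numbers, was not called (-0.15 ± 0.10, adjusted p = 0.463; with the block 0.174). Of the changes with LPS that were called, this one depended on scaling. With all columns rescaled to an equal sum it was 0.11 (adjusted p = 0.405), while the median of all genes shifted to -0.38, so that the change relative to that median was 0.49. With quantile normalization it was -0.17 (adjusted p = 0.302). The difference between Hevin and LPS likewise lost its call, at -0.22 (adjusted p = 0.108) with equal sums and 0.09 (adjusted p = 0.560) with quantile normalization.

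Fcgrt, on chromosome 7 (45092990 to 45103851, minus strand), moved the other way with LPS. It had 38.1, 41.3, 43.7 and 49.7 FPKM in Hevin libraries 1 to 4, 29.7, 23.4, 28.7 and 25.03 FPKM in LPS libraries 1 to 4, and 31.3, 37.5, 38.2 and 45.6 FPKM in Media libraries 1 to 4. All LPS libraries were below all libraries of the other groups, and Hevin and Media overlapped. LPS against Media was -0.49 ± 0.12 (adjusted p = 0.0121) and Hevin against LPS 0.67 ± 0.12 (adjusted p = 0.00112). Without the libraries numbered 2, LPS against Media was -0.44 and its call was lost (adjusted p = 0.0659, no block). Hevin over Media was 1.22, 1.10, 1.14 and 1.09-fold within numbers 1 to 4, higher in each, and was not called (0.18 ± 0.12, adjusted p = 0.474). B2m, the light chain of FcRn, averaged 1926 ± 167 FPKM in Hevin, 2759 ± 316 FPKM in LPS and 1928 ± 156 FPKM in Media (SD, n = 4 each). It rose with LPS by 0.51 ± 0.11 (adjusted p = 0.00422), opposite to Fcgrt, but fell by 0.35 on the log2 scale with quantile normalization.

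Between LPS and Media, 3 of the 6 genes were called higher and 1 lower, where 13.2% of all genes tested were called higher and 12.6% lower. With the block 5 were called higher and 1 lower, against 21.5% and 22.2% of all genes. The split over all genes depended on scaling, with 1484 higher and 1413 lower as deposited and 669 and 5615 with equal sums. The median log2 fold change was 0.70 over the 6 genes and -0.02 over all genes tested. Between Hevin and LPS, 1 gene was called higher and 3 lower, where 22.0% of all genes were called higher and 19.7% lower. With the block these were 1 and 4, against 29.9% and 28.0%. Both contrasts share the LPS libraries, and both treatments share the Media libraries.

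Between Hevin and Media no difference of the 6 genes passed the test. By limma 0 of 6 were called against Media, 0 had an unadjusted p under 0.05 and 0 were called with the block, with voom on recovered reads or in any other of the 26 alternatives run. Over all genes 7.37% were called in either direction, and 21.4% with the block. With the block the 95% intervals were -0.03 to 0.67 for Fcgr1, -0.38 to 0.54 for Fcgr2b, -0.13 to 0.74 for Fcgr3, -0.74 to 0.07 for Fcgr4, -0.32 to 0.01 for Fcer1g and -0.06 to 0.42 for Fcgrt, so that smaller changes in either direction were not detectable with 4 libraries a group. Over the same libraries the sum of microglial markers was higher in Hevin than in Media in each number.

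**Figure D2:**
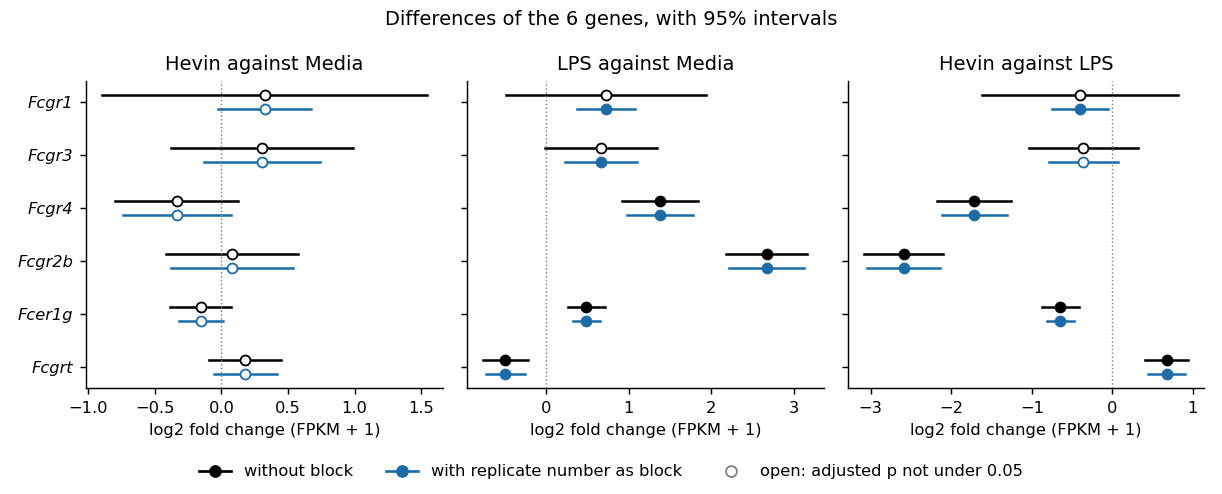
Log2 fold changes of the 6 genes on the log2(FPKM + 1) scale (horizontal axes) in the 3 comparisons, with 95% intervals, without the block (black) and with the replicate number as a block (blue); filled points had an adjusted p under 0.05. Fcgr2b stands farthest from 0 in both comparisons that involve LPS, and all points for Hevin against Media are open.

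The balance of the ligand-binding receptors shifted toward the inhibitory one in LPS. Of the summed FPKM of Fcgr1, Fcgr2b, Fcgr3 and Fcgr4, Fcgr2b made up 8.77, 11.96, 11.7 and 10.4% in Hevin libraries 1 to 4, 25.9, 38.7, 40.4 and 41.6% in LPS libraries 1 to 4 and 7.70, 15.1, 14.3 and 12.7% in Media libraries 1 to 4. Each LPS library was above every other library, and LPS library 1 was the lowest of its group. The 3 activating receptors together were 8.49 ± 1.39 times Fcgr2b in Hevin, 1.83 ± 0.693 times in LPS and 7.61 ± 2.97 times in Media (SD, n = 4 each). Fcgr3 held the largest share in all 12 libraries, 73.4 ± 7.23% in Hevin, 50.5 ± 5.83% in LPS and 71.6 ± 7.40% in Media. The sum of the 4 genes was 165, 159, 121 and 161 FPKM in Hevin libraries 1 to 4, 424, 171, 221 and 387 FPKM in LPS libraries 1 to 4 and 158, 126, 97.9 and 123 FPKM in Media libraries 1 to 4. Each LPS library was above every Hevin and Media library, number 2 by the smallest margin. Fcer1g RNA was 3.23 ± 0.549 times the summed activating receptors in Hevin, 4.09 ± 1.67 times in LPS and 4.50 ± 1.16 times in Media, with overlapping ranges. These ratios were built from the genes chosen here and were not tested.

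**Figure D3:**
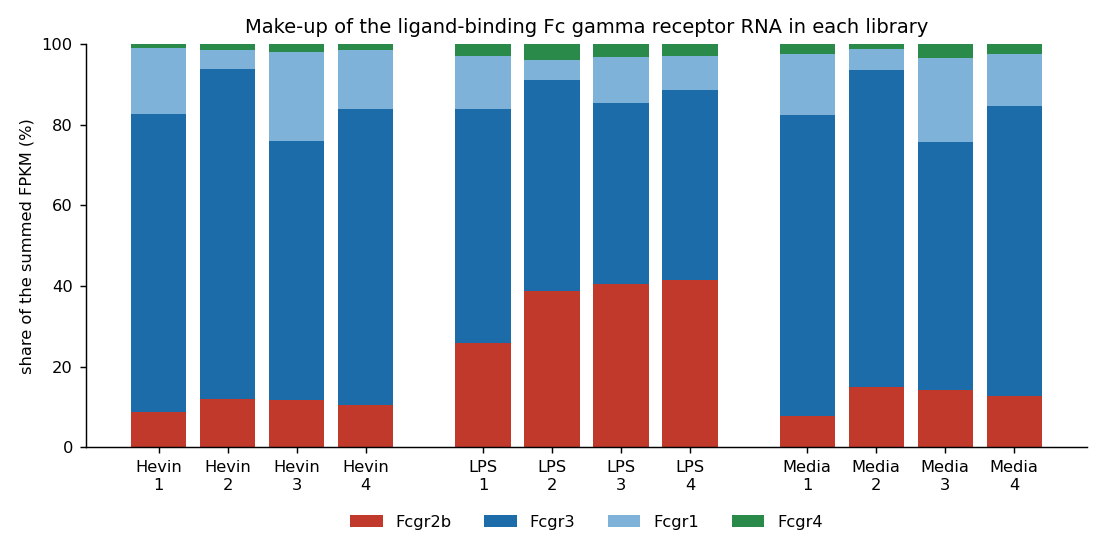
Share of the summed FPKM of the 4 ligand-binding receptors (vertical axis, percent) taken by Fcgr2b, Fcgr3, Fcgr1 and Fcgr4 in each library, grouped as Hevin, LPS and Media. The Fcgr2b share is largest in the 4 LPS libraries, at 25.9% to 41.6%, against 8.77% to 11.96% in Hevin and 7.70% to 15.1% in Media.

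Of the 6 genes Fcgr1 was the lowest in the libraries numbered 2 relative to the other numbers, in every group. There it was 29.1% of the mean of the other numbers in Hevin, 22.6% in LPS and 31.5% in Media. Stat2, a transducer of the type I interferon response, was 32.5% of the mean of the other numbers in Hevin, 43.4% in LPS and 34.9% in Media. Irf9, which acts with STAT2 in that response, was 49.8% in Hevin, 58.5% in LPS and 44.3% in Media. Fcgr2b was 126% of the mean of the other numbers in Hevin, 55.1% in LPS and 137% in Media, and Fcer1g was 93.0%, 80.0% and 96.1% in the same groups. Fcgr3 was 123% in Hevin, 50.9% in LPS and 112% in Media, and Fcgr4 was 110.0%, 65.9% and 49.4%. The neutrophil markers were high in the same 3 libraries, and their part in these differences was not tested.

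**Figure D4:**
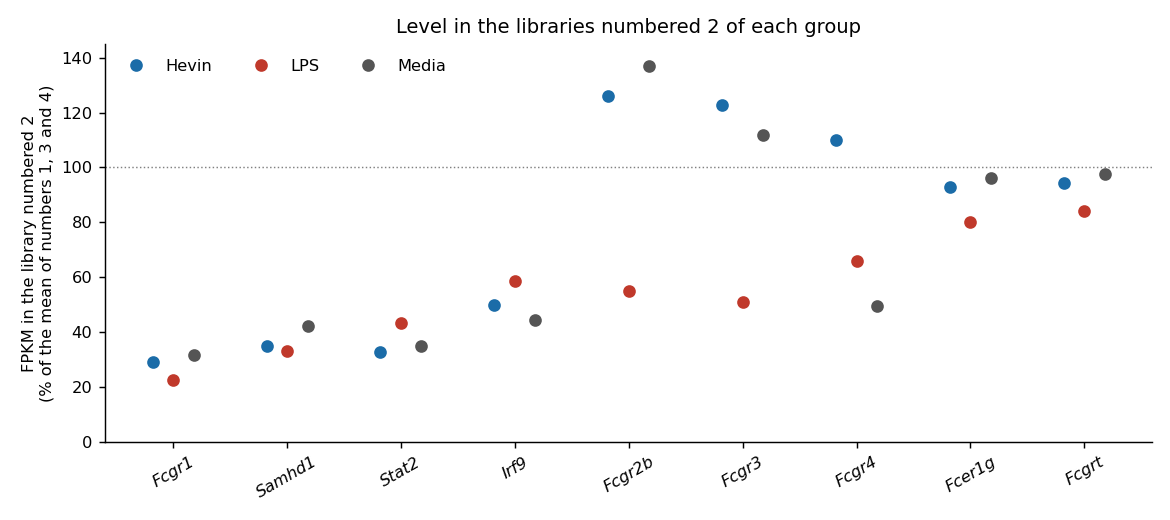
FPKM in the library numbered 2 as a percentage of the mean of the libraries numbered 1, 3 and 4 of the same group (vertical axis, linear from 0; 1 point per group) for the 6 receptor genes and 3 genes of the interferon response. Fcgr1, Samhd1 and Stat2 are all under 50% in each group, whereas Fcer1g and Fcgrt are at 80.0% or above. Samhd1 was picked by its r with Fcgr1, and Stat2 and Irf9 from a list of 8 transcription factors.

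Across all 12 libraries the genes most like each receptor, by Pearson r of log2(FPKM + 1), differed between receptors. These correlations are over 12 libraries that share the groups and numbers, and are a description. Fcgr1 was most like Samhd1 (r = 0.946), an interferon-induced nucleotide hydrolase, Ifi27 (0.938) and Maged2 (0.938). In the library numbered 2, Samhd1 was 34.9% of the mean of the other numbers in Hevin, 33.1% in LPS and 42.2% in Media. Ifi27 dropped less, to 59.5%, 70.8% and 68.1% in the same groups, as did Maged2, to 67.5%, 71.2% and 68.8%. All 3 were picked by their r with Fcgr1, which was lowest in number 2, so these drops are no separate result. Fcgr2b was most like Slc26a4 (0.986), an anion exchanger, Dusp16 (0.981), a phosphatase of MAP kinases, and Cyth3 (0.977). Slc26a4 lay at 0.0115 to 0.0584 FPKM in Hevin, 1.76 to 3.18 FPKM in LPS and 0.0115 to 0.201 FPKM in Media. It thus passed the filter only through the LPS libraries. Its r largely restates the split between LPS and the other groups. Fcgr4 was most like Gdpd1 (0.973), Sipa1l1 (0.971) and Bcl3 (0.965), a nuclear IκB protein. Fcer1g was most like Steap4 (0.979), a metalloreductase, Cers6 (0.973), a ceramide synthase, and Ncoa7 (0.971). Steap4 too passed the filter only with its LPS libraries. It lay at 0.287 to 0.440 FPKM in Hevin, 15.6 to 70.9 FPKM in LPS and 0.746 to 2.60 FPKM in Media. Fcgr3 had the lowest values, with Ptpn1 (0.913), Ddb1 (0.899) and Ctsb (0.898), the lysosomal protease cathepsin B. Fcgrt was most like Rnf187 (0.959), Alg2 (0.957) and Tmem109 (0.954), and these 3 genes were lower in LPS than in Media, as Fcgrt was. Among the receptors themselves r was 0.918 for Fcgr2b with Fcer1g, 0.908 for Fcgr2b with Fcgr4 and -0.785 for Fcgr2b with Fcgrt. After subtraction of the group means the highest value was that of Fcgr1 with Fcgr4 (0.687).

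On chromosome 1 the 4 genes Fcgr2b, Fcgr4, Fcgr3 and Fcer1g lie within 275749 bases, which hold 11 protein-coding genes. Of the 7 others in that span 4 were tested, Cfap126, Sdhc, which encodes a subunit of respiratory complex II, Pcp4l1 and Tomm40l. By limma 0 of these 4 were called between LPS and Media and 0 had an unadjusted p under 0.05, without or with the block and with voom on recovered reads. Their log2 fold changes ran from -0.14 to -0.06, where the receptor genes ran from 0.49 to 2.67. As 13.2% of all genes were called higher and 12.6% lower, 0 of 4 says little. Without the block the 95% intervals for Cfap126 (-0.87 to 0.70) and Pcp4l1 (-1.20 to 1.02) included the changes of Fcer1g (0.49) and Fcgr3 (0.66). Those for Sdhc (-0.24 to 0.12) and Tomm40l (-0.43 to 0.15) did not. With the block all 4 intervals ended below 0.49, the highest at 0.34 for Cfap126. On the FPKM + 1 scale the same fold change gives a smaller value in a weakly expressed gene. Cfap126 averaged 1.47 FPKM in Media and Fcer1g 478 FPKM. An interval that ends below 0.49 thus does not exclude a fold change like that of Fcer1g for Cfap126. Just outside the span, beyond Fcer1g, Adamts4, an aggrecan-cleaving protease, averaged 15.8 ± 9.10 FPKM in LPS and 4.17 ± 2.86 FPKM in Media (1.71 ± 0.51, adjusted p = 0.0275), and B4galt3 averaged 29.6 ± 5.07 and 21.3 ± 1.73 FPKM in the same groups (0.45 ± 0.11, adjusted p = 0.0117). The Fc receptor-like gene Fcrlb, on the other side, was under the filter, at 0.168 to 0.295 FPKM in Hevin, 0.0740 to 3.02 FPKM in LPS and 0 to 0.161 FPKM in Media. These outside genes were picked from the map after their values were seen. Inside the span, limma with the block called Pcp4l1 lower in Hevin than in Media (-0.45, adjusted p = 0.0424, 95% interval -0.76 to -0.14). It was also called lower in Hevin than in LPS (-0.36, adjusted p = 0.0455). With the block 10.6% of all genes were lower in the first comparison and 28.0% in the second. Voom with the block called 0 of the 4 genes in either.

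**Figure D5:**
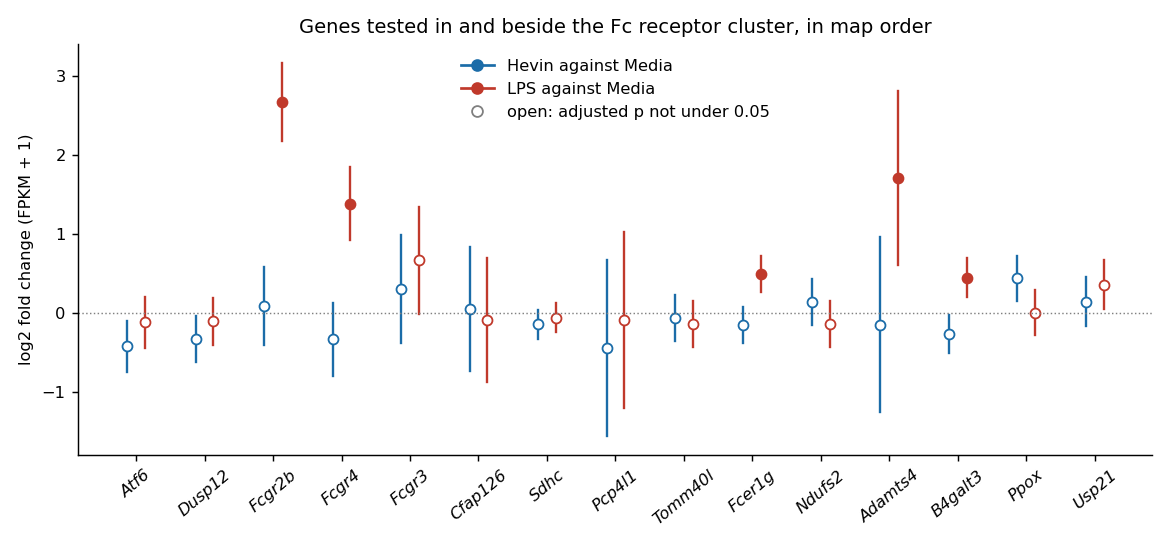
Log2 fold changes on the log2(FPKM + 1) scale (vertical axis) with 95% intervals for genes tested in and beside the chromosome 1 cluster, in map order from left to right, for Hevin against Media (blue) and LPS against Media (red); filled points had an adjusted p under 0.05. Fcgr2b, Fcgr4 and Fcer1g are filled for LPS, as are Adamts4 and B4galt3 beside the cluster. The 4 genes between Fcgr3 and Fcer1g are open in both comparisons. Their points are near 0 for LPS, while Pcp4l1 is at -0.45 for Hevin, with a wide interval. The fits shown have no block, and with it Pcp4l1 was called lower for Hevin by limma (adjusted p = 0.0424).

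Downstream of the activating receptors, 29 kinases and adaptors were tested. With LPS 9 were called higher and 4 lower than in Media, where 13.2% of all genes were higher and 12.6% lower, so the number lower is near that of all genes. With the block these were 15 and 7, against 21.5% and 22.2% of all genes. Under the other 3 scalings 7 to 9 were higher and 7 to 12 lower, where 5.95% to 10.1% of all genes were higher and 14.8% to 49.9% lower. The same shares of all genes apply to each list below for LPS against Media. Syk, the kinase that binds the phosphorylated ITAM, averaged 95.7 ± 9.46 FPKM in LPS and 63.05 ± 2.66 FPKM in Media (0.59 ± 0.08, adjusted p = 3.04e-04). Pik3r5, a regulatory subunit of PI3K gamma, and Malt1, the paracaspase downstream of CARD9, had the largest rises, with 2.41 ± 0.15 (adjusted p = 5.12e-07) and 2.70 ± 0.18 (adjusted p = 7.97e-07). Card9 itself fell (-0.73 ± 0.09, adjusted p = 1.85e-04), as did the kinase Tec (-0.73 ± 0.12, adjusted p = 8.23e-04). Lyn and Fgr, both Src family kinases, were called higher only with the block (adjusted p = 0.0260 for Lyn and 0.0338 for Fgr), and Lyn was at -0.15 with equal sums and -0.20 with quantile normalization.

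Of the phosphatases that inhibitory receptors recruit, SHIP-1 and SHP-1 were lower with LPS and SHP-2 higher. Inpp5d, which encodes SHIP-1, averaged 17.1 ± 5.19 FPKM in LPS and 45.7 ± 4.44 FPKM in Media, a fold change of -1.41 ± 0.18 (adjusted p = 1.54e-04). Ptpn6, which encodes SHP-1, averaged 46.2 ± 14.04 and 80.2 ± 15.7 FPKM in the same groups (-0.81 ± 0.21, adjusted p = 0.0129), and the adaptor Dok2 averaged 8.796 ± 2.42 and 40.2 ± 18.3 FPKM (-1.99 ± 0.36, adjusted p = 0.00169). Ptpn11, which encodes SHP-2, averaged 36.4 ± 2.52 and 30.2 ± 2.01 FPKM (0.26 ± 0.08, adjusted p = 0.0284), but was at -0.11 with equal sums and lost its call under all 3 other scalings and when LPS 1, LPS 4, Media 2, Media 3 or Media 4 was left out. Inppl1, which encodes SHIP-2, was not called without the block (-0.43 ± 0.17, adjusted p = 0.0873) and was called lower with it (adjusted p = 0.00264). In the list of 14 phosphatases and inhibitory adaptors, 2 were called higher and 5 lower with LPS, 3 and 8 with the block, and 1 and 6 to 9 under the other scalings. The number higher is near the share of all genes, without and with the block. The other ITAM adaptor of these cells, Tyrobp (DAP12), averaged 356 ± 54.2 FPKM in LPS and 549.7 ± 28.7 FPKM in Media (-0.63 ± 0.11, adjusted p = 0.00107), while Fcer1g was higher. Among 13 receptors that pair with such adaptors, Tyrobp included, 2 were higher, near the share of all genes, and 5 lower. The block gave 5 and 6. Clec4e (Mincle), which signals through the Fcer1g chain, averaged 477 ± 101 FPKM in LPS and 54.6 ± 11.2 FPKM in Media (3.10 ± 0.19, adjusted p = 5.02e-07).

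Of the effector genes, Cybb, the catalytic subunit of the phagocyte NADPH oxidase, averaged 345 ± 63.9 FPKM in LPS and 42.8 ± 3.48 FPKM in Media (2.97 ± 0.13, adjusted p = 3.30e-08). Of the 7 oxidase subunits 2 were called higher and 0 lower, 4 and 2 with the block, and 1 and 2 under the other scalings. Of 28 genes of the actin and membrane machinery 5 were higher and 3 lower, 9 and 6 with the block, and 4 to 5 and 7 to 18 under the other scalings. Without the block these counts are near the shares of all genes, as is the count of 6 with it. Marcksl1 averaged 677 ± 104 FPKM in LPS and 118 ± 31.4 FPKM in Media (2.53 ± 0.19, adjusted p = 2.62e-06), and Coro1a, which encodes the actin-binding coronin of phagosomes, averaged 81.1 ± 15.9 and 175 ± 28.1 FPKM (-1.10 ± 0.16, adjusted p = 4.77e-04). Of the 8 transcription factors known to act at Fc receptor genes 3 were higher and 1 lower, 6 and 2 with the block, and 2 and 2 under the other scalings. Irf1 averaged 58.6 ± 4.92 FPKM in LPS and 15.4 ± 2.61 FPKM in Media (1.88 ± 0.18, adjusted p = 1.92e-05). Trim21, a cytosolic receptor for antibody, averaged 35.5 ± 16.00 and 9.39 ± 4.17 FPKM in the same groups (1.79 ± 0.47, adjusted p = 0.0155).

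With Hevin, calls against Media in the same lists included Pik3cg, Vav3, Trem2, Ncf1 and Cebpa. Of the 29 kinases and adaptors 1 was higher and 3 lower, where 4.27% of all genes were higher and 3.1% lower. With the block these were 6 and 7, against 10.8% and 10.6% of all genes. Under the other scalings 1 to 2 were higher and 3 to 5 lower, where 4.71% to 5.70% of all genes were higher and 2.70% to 3.90% lower. The same shares apply to the lists that follow. Pik3cg, the catalytic subunit of PI3K gamma, averaged 10.4 ± 1.67 FPKM in Hevin and 5.65 ± 0.922 FPKM in Media (0.77 ± 0.14, adjusted p = 0.00554). Vav3, an exchange factor for Rac, averaged 9.12 ± 1.27 and 16.3 ± 1.82 FPKM (-0.77 ± 0.12, adjusted p = 0.00182), and Lcp2 (SLP-76) averaged 42.5 ± 5.72 and 62.5 ± 6.66 FPKM (-0.55 ± 0.11, adjusted p = 0.00793). Syk was not called (-0.14 ± 0.08, adjusted p = 0.361). With the block Fgr was called higher (adjusted p = 0.00473) and Lyn lower (adjusted p = 0.0130). Without the block Fgr was at 0.73 ± 0.21 (adjusted p = 0.0565), and it was called when LPS 2, LPS 3 or Media 2 was left out.

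Inpp5d averaged 77.5 ± 7.96 FPKM in Hevin and 45.7 ± 4.44 FPKM in Media (0.75 ± 0.18, adjusted p = 0.0242), a direction opposite to that with LPS. That call was lost when Hevin 1, Hevin 2, Hevin 4, Media 3 or Media 4 was left out, with adjusted p of 0.0585 to 0.0788, and Hevin against LPS was 2.16 ± 0.18 (adjusted p = 2.57e-06). Sla, an adaptor that lowers receptor levels, averaged 17.9 ± 0.859 and 9.06 ± 2.25 FPKM (0.93 ± 0.16, adjusted p = 0.00399). The 14 phosphatases and inhibitory adaptors held 2 called higher and 1 lower with Hevin, 5 and 2 with the block. The 1 lower was Dok2, at 12.5 ± 5.84 FPKM in Hevin and 40.2 ± 18.3 FPKM in Media (-1.59 ± 0.36, adjusted p = 0.0171). Ptpn6 was at -0.25 ± 0.21 (adjusted p = 0.583) and was called lower only with the block (adjusted p = 0.0362). Both were lower with LPS as well. Of the 13 partners of ITAM adaptors 1 was higher and 1 lower, 3 and 3 with the block. Trem2 averaged 112 ± 14.6 FPKM in Hevin and 71.9 ± 10.4 FPKM in Media (0.64 ± 0.13, adjusted p = 0.0111), and Cd300ld averaged 14.00 ± 0.793 and 48.04 ± 8.28 FPKM (-1.69 ± 0.16, adjusted p = 4.76e-05). Tyrobp was not called (0.04 ± 0.11, adjusted p = 0.901).

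Ncf1, the organiser subunit of the NADPH oxidase, averaged 57.9 ± 3.68 FPKM in Hevin and 29.2 ± 6.15 FPKM in Media (0.98 ± 0.17, adjusted p = 0.00410), and Rac2, its regulatory GTPase, averaged 17.3 ± 4.22 and 30.6 ± 3.78 FPKM (-0.81 ± 0.16, adjusted p = 0.00759). These were the 2 calls among the 7 subunits. Of the 28 actin and membrane genes 0 were higher and 1 lower, 2 and 7 with the block. Cebpa, a myeloid transcription factor, averaged 124 ± 18.2 FPKM in Hevin and 29.1 ± 8.12 FPKM in Media (2.08 ± 0.24, adjusted p = 2.07e-04), and Irf8 averaged 45.4 ± 6.57 and 25.8 ± 3.16 FPKM (0.79 ± 0.15, adjusted p = 0.00559). They were the 2 calls among the 8 factors. Trim21 averaged 12.3 ± 5.62 FPKM in Hevin and 9.39 ± 4.17 FPKM in Media (0.34 ± 0.47, adjusted p = 0.776) and was called higher only with the block (adjusted p = 0.0203). Fcrls, an Fc receptor-like scavenger receptor that marks mouse microglia, averaged 277 ± 51.9 FPKM in Hevin, 158 ± 14.5 FPKM in LPS and 149 ± 12.4 FPKM in Media. It was higher in Hevin than in Media in 4 of 4 numbers (0.88 ± 0.13, adjusted p = 0.00137), beside the higher sum of microglial markers in Hevin given above, whose part in it was not tested.

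Small counts in these lists turned on single libraries. For Hevin against Media, the kinases called higher were 2 without LPS 2 or LPS 3 and 3 without Media 2. The phosphatases called higher were 1 without Hevin 1, Hevin 2, Hevin 4, Media 3 or Media 4, and those called lower were 0 without Hevin 1, Media 3 or Media 4. The adaptor partners called higher were 2 without LPS 3 or LPS 4. The actin genes called higher were 1 without LPS 1, LPS 2 or LPS 3. Those called lower were 2 without Media 1 or Media 2 and 0 without Hevin 2, Hevin 3, LPS 1, LPS 4, Media 3 or Media 4. For LPS against Media, the phosphatases called lower were 3 without LPS 3, LPS 4 or Media 4, and those called higher were 1 without LPS 1, LPS 4, Media 3 or Media 4. The oxidase subunits called higher were 1 without Hevin 4, LPS 1, LPS 2, LPS 4, Media 1, Media 3 or Media 4. The transcription factors called lower were 2 without LPS 1 and 0 without LPS 2, LPS 3, LPS 4, Media 1, Media 2 or Media 4.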

How the data were processed

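RNA of 12 mouse microglia libraries (4 each of Hevin, LPS and Media) was sequenced as pairs of 100-base reads from 100 ng of total RNA, per the labels' protocols. According to the submitters' processing notes, the genome build was mm10 and the tools included edgeR 3.30.3 under R 4.0.0, featureCounts, Subread 1.6.3, Bowtie2 2.3.5.1, Trimmomatic 0.39 and FastQC 0.11.7, with no roles stated. The authors deposited FPKM values in 1 table. Its annotation, gene filter and strand setting were not given in the sources used here. Titles supplied the groups and numbers.

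Genes that reached 1 FPKM in 4 or more libraries were fitted by limma (3.58.1, R 4.3.3) on log2(FPKM + 1), with all 3 groups together and a mean-variance trend, and adjusted by Benjamini-Hochberg at 0.05. The values of 100% of the listed genes were whole multiples of 1 read within 0.1 read. Recovered reads gave the depth and a voom fit, which called 1452 genes higher and 1383 lower in LPS against Media. FPKM sums were 298271 to 327160 in Hevin, 414956 to 430248 in LPS and 319069 to 330239 in Media, so scalings were compared. The test was run on simulated data.

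The deposited column names join same-numbered libraries under a further group number. Deviations from group means correlated in all 12 same-number pairs (r = 0.230 to 0.784, mean 0.630), which is the basis for treating equal numbers as pairs. The 36 pairs of unequal numbers ran from -0.592 to 0.528 (mean -0.201), so the ranges overlapped. Pairing was weakest for number 4. LPS 4 had r = 0.230 with Media 4 but 0.528 with Media 3, and 0.392 with Hevin 4 but 0.520 with Hevin 3. The model set as main has no block.

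The 6 genes and the 8 pathway lists were chosen with earlier results of these data known. Genes named from a list were those called, at most 3 per direction and comparison, plus Syk, Lyn, Fgr, Inpp5d, Ptpn6, Tyrobp, B2m, Fcrls and Trim21, and some that qualify are not reported here. For likeness, the 3 genes with the highest r were taken. Alternatives were pseudocounts of 0.1 and 5, no filter or 5 FPKM, only both groups compared, no trend, 3 scalings, the block, voom, and leaving out each library. Voom with the block and leaving out number 2, without and with the block, were chosen after seeing the data. Positions are from GENCODE M21 (GRCm38). Figures used matplotlib 3.10.9.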

Additional observations from a re-analysis of the deposited data

Results flagged for a closer look

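In 5 of 144 groups of 4 libraries examined for the 6 receptor genes and the pathway genes named, 1 library lay far from the other 3 of its group by the Dixon test, where chance gives about 1 in 20. Fcgr1 was lowest in Hevin 2, at 7.50 FPKM, against 23.6 to 26.9 FPKM in the other Hevin libraries. Lyn was lowest in Media 2, at 132 FPKM. Ncf1 was highest in LPS 2, at 52.1 FPKM, against 30.2 to 32.6 FPKM in the other LPS libraries. These 3 values fall in libraries numbered 2, which also carry the neutrophil markers, and the part of those cells in them was not tested. Pik3cg was lowest in LPS 3, at 4.05 FPKM, and Ptpn11, which encodes the phosphatase SHP-2, was highest in Hevin 1, at 35.3 FPKM.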

How the results depend on the processing

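Fcgr2b and Fcgr4 kept their direction and call in LPS against Media and in Hevin against LPS under all 26 alternatives, and Fcgrt did so in Hevin against LPS. For Fcgr4 the 5 FPKM filter is no check of these calls. It passed that filter only through its LPS libraries (6.80 to 12.3 FPKM), with at most 2.35 FPKM in Hevin and 3.87 FPKM in Media. Of 468 alternative values of the 6 genes, 446 kept direction and side of the threshold, and of 1454 values of named pathway genes 1338 did. The causes of the other changes were not tested. Counting error limits Fcgr4 most, with the fewest reads, and 4 libraries a group limit every comparison.

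With the replicate number as a block, because the numbers pair the libraries, 1210 genes were called higher and 1196 lower in Hevin against Media (480 and 349 without), and 2416 and 2498 in LPS against Media (1484 and 1413 without). For LPS against Media 5 receptor genes were then higher, with Fcgr1 at 0.73 and Fcgr3 at 0.66, and for Hevin against LPS Fcgr1 was called at -0.40. No other call of the 6 genes changed with the block. With voom and the block these counts were 1363 and 1366 for Hevin and 2438 and 2519 for LPS, 5 receptor genes were higher with LPS, Fcgr1 was at 0.81 and Fcgr3 at 0.68, and Fcgr1 was at -0.45 in Hevin against LPS. With only numbers 1, 3 and 4 and the block they were 987 and 971, and 2309 and 2329. Fcgr1 was then at 0.84 and Fcgr3 at 0.94 with LPS (5 higher), and 5 receptor genes were lower in Hevin than in LPS, Fcgr1 at -0.48 and Fcgr3 at -0.66. Without number 2 and without the block, Fcgr1 was called at 0.84 and Fcgrt lost its call at -0.44, which left 0 receptor genes lower.

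With equal sums 669 genes were higher and 5615 lower in LPS against Media, and 5983 higher and 851 lower in Hevin against LPS. Fcer1g lost its calls at 0.11 and -0.22 in those comparisons, and in Hevin against LPS Fcgr1 was at 0.0085 and Fcgr3 at 0.068. The median of all genes shifted to -0.38 and 0.42 in those comparisons with equal sums, and to -0.12 and 0.12 with upper quartile scaling. With quantile normalization Fcer1g was at -0.17 in LPS against Media and 0.088 in Hevin against LPS, and Fcgr3 at 0.11 in the last. Upper quartile scaling called 2466 genes lower in LPS against Media, and the 5 FPKM filter called 1604 higher in Hevin against LPS.

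Signs turned for pathway genes near 0 or under scaling. In LPS against Media these were B2m (-0.35) and Lyn (-0.20) with quantile normalization, Lyn (-0.15) and Ptpn11 (-0.11) with equal sums, and Fcrls at -0.032, -0.34 and -0.29 with upper quartile, quantile and equal sums. In Hevin against Media B2m was at 0.0090 with upper quartile scaling, 0.049 with equal sums and 0.0095 without number 2, with or without the block.

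Leaving out 1 library at a time gave 308 to 541 genes higher and 203 to 389 lower in Hevin against Media. Past 1.5-fold from the full count were 308 higher and 203 lower without Media 3, 312 and 220 without Hevin 4, 219 lower without Hevin 3 and 230 lower without Media 4. It changed no call of the 6 genes. In Hevin against Media Fcgr1 ranged from -0.052 (without Media 2) to 0.74 and Fcgr2b from -0.014 (without Media 1) to 0.19, and in Hevin against LPS Fcgr1 ranged from -0.89 to 0.0096 (without Hevin 2). In Hevin against Media B2m ranged from -0.053 to 0.050, positive without Hevin 2, Hevin 4 or Media 3, and Trim21 from -0.0070 (without Media 2) to 0.72.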
